A study of Homo sapiens with 4 samples.

Results

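The nuclear-encoded subunits of the respiratory chain and of ATP synthase were examined as 1 group of genes in human bladder cancer cells that had received a circular RNA. Members were chosen by name alone: genes named NDUFA, NDUFB, NDUFC, NDUFS or NDUFV with a number (complex I), SDHA to SDHD (complex II), the UQCR genes (complex III), the broadly expressed COX isoforms (complex IV) and the ATP5 genes (complex V, ATP synthase). Names with a hyphen and pseudogene names ending in P and digits were dropped. This gave 80 of the 56303 genes in the deposited count table, with 38 in complex I, 4 in complex II, 8 in complex III, 11 in complex IV and 19 in complex V. Of these, 78 had enough reads to be tested. The other two were ATP5J2LP, with 0 counts in all 4 libraries, and ATP5L2, with 1, 2, 0 and 0 counts in T24T circ, T24T vector, EJ circ and EJ vector. The naming rule also took in ATP5S and ATP5SL, which are named after ATP synthase but are not among its standard subunits, and NDUFA4 and NDUFA4L2, the first of which is now placed in complex IV.

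RNA sequencing libraries came from T24T and EJ cells transfected with hsa_circ_0008399 (T24T circ, EJ circ) or with the vector (T24T vector, EJ vector), 1 library per group. The vector libraries were thus transfected as well. The deposited tables hold 1 value per gene, so the circle has no value of its own. T24T, written T24 in the deposited columns, is a derivative of the T24 line and EJ stocks are widely listed as T24-derived, so the 2 lines may not stand for separate tumours. Total counts were 18057768 in T24T circ, 16864247 in T24T vector, 14703455 in EJ circ and 15639289 in EJ vector. Of 16 urothelial markers, UPK3A and KRT5 had 0 counts in every library, and UPK1B, KRT20, GATA3, TP63 and CDH1 had at most 5. UPK1A, UPK2, UPK3B, PPARG, FOXA1 and EPCAM had between 3 and 117 counts, and the simple-epithelium keratins KRT7, KRT8 and KRT18 had between 2164 and 14341. Of 6 leukocyte markers, PTPRC, CD3E and LYZ were at 0, and the list's sum of 1112 counts in T24T circ, 952 in T24T vector, 217 in EJ circ and 162 in EJ vector was nearly all CD68, a lysosomal protein gene. The 4 endothelial markers summed to at most 16 counts and the 6 fibroblast markers, with DCN and LUM at 0, to at most 19 in any library.

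The respiratory chain sits in the inner mitochondrial membrane. Complex I takes electrons from NADH and complex II from succinate, ubiquinone and complex III pass them on to cytochrome c, and complex IV hands them to oxygen, while complexes I, III and IV pump protons that drive ATP synthase. All subunits of complex II and most of the others are encoded in the nucleus, and a small core is encoded by mitochondrial DNA, so both genomes must supply parts in balance. Nuclear respiratory factor 1 (NRF1), the ETS factor GABPA and YY1 are known regulators of the nuclear genes.

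The promoters of 65 of the 80 members were found in the RefSeq table of GRCh38.p14, in 77 windows that run from 250 bases before to 50 after a start. The NRF1 motif (GCGCA, any base, GCGC), searched on both strands as were the others, occurred in 15 windows, or 19.5%, against 7.39% of 22199 protein-coding windows and 5.78% of all 35116. The GABPA motif CCGGAAG occurred in 27.3% of member windows, 12.8% of protein-coding windows and 10.3% of all. The YY1 motif AAGATGGCG occurred in 13.0% of member windows, 2.41% of protein-coding windows and 1.75% of all. These are matches of letters and not measured binding, and each stretch shown holds at most 1 match. Shown next are the 120 bases before the start of 5 members whose counts differed between circ and vector, with any NRF1 or GABPA match in capitals, to set promoters of genes that fell beside that of one that rose. Of the 8 genes with a window among the 10 that differed, these 5 hold any of the 3 motifs, and NDUFS8, ATP5SL and NDUFA4L2 hold none. ATP5C1 lies at chr10:7788057-7788176 on the plus strand, ATP5O at chr21:33915805-33915924 on the minus strand and NDUFA11 at chr19:5903791-5903910 on the minus strand. Each holds an NRF1 match, which in ATP5O and NDUFA11 is in reverse complement. COX8A lies at chr11:63974500-63974619 on the plus strand and holds the GABPA letters in reverse complement. NDUFA6 lies at chr22:42090773-42090892 on the minus strand, and its window has YY1 letters at position 26 after the start, outside the stretch shown.
ATP5C1: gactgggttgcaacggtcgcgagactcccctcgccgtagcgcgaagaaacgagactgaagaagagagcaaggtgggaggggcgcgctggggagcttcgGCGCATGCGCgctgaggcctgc
ATP5O: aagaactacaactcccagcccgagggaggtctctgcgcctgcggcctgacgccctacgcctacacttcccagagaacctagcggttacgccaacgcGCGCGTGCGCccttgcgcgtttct
NDUFA11: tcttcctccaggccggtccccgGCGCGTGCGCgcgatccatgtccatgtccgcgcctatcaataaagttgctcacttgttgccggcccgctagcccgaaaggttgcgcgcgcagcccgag
COX8A: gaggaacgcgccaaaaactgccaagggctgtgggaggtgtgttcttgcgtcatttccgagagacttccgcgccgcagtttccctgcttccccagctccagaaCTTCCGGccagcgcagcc
NDUFA6: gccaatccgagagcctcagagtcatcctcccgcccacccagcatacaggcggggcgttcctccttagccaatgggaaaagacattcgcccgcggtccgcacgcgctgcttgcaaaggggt

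The subunit genes were highly expressed, and their levels spread widely. Levels are given as RPKM, a count per length of gene model and per size of library, which allows genes of different length to be set side by side. The median tested member had a mean of 28.1 RPKM over the 4 libraries, against 3.33 RPKM for all 17689 tested genes, which puts it at the 89.6 percentile of tested genes. Together the members took 0.993% of counts in T24T circ, 0.967% in T24T vector, 0.952% in EJ circ and 0.981% in EJ vector.

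In complex I, NDUFS5, an accessory subunit on the intermembrane-space side, had 1820 RPKM in T24T circ, 1580 in T24T vector, 1660 in EJ circ and 1730 in EJ vector, and made up 54.7% of the summed RPKM of its complex. NDUFS4, an accessory subunit of the NADH-oxidising arm, followed with 132 RPKM in T24T vector to 172 RPKM in EJ vector. At the other end NDUFS7, the core subunit next to the quinone site, ranged from 2.82 RPKM in T24T circ to 3.54 RPKM in EJ vector, and NDUFA4L2 stayed under 1 RPKM. NDUFS5 and NDUFS7, whose proteins stand in equal number in complex I, thus had RPKM far apart in all 4 libraries. Their gene models span 548 and 7533 bases, and they had 18020 and 384 counts in T24T circ. The RPKM gap between them therefore depends on length as well as on counts. In complex II the catalytic subunits SDHA (from 29.9 RPKM in T24T circ to 38.4 RPKM in EJ circ) and SDHB (from 36.2 RPKM in T24T vector down to 24.9 RPKM in EJ circ) lay well above the membrane anchors SDHC (4.11 to 4.32 RPKM) and SDHD (4.04 to 5.34 RPKM). The gene model of SDHC in the table spans 14160 bases against 2462 for SDHB, and its 1073 counts in T24T circ were not far under the 1481 of SDHB, so its RPKM depends on that length. The ranges of SDHC and SDHD overlap, as do those of SDHA and SDHB.

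In complex III, UQCRH, the hinge protein beside cytochrome c1, had 404 RPKM in T24T circ, 341 in T24T vector, 383 in EJ circ and 359 in EJ vector and made up 54.4% of the summed level. UQCRQ, a small subunit, followed with a mean of 137 RPKM over the 4 libraries. The core protein UQCRC2 (from 6.02 RPKM in T24T circ to 7.71 RPKM in EJ vector) and the Rieske iron-sulfur protein UQCRFS1 (from 9.15 RPKM in T24T circ to 13.3 RPKM in EJ circ) were lowest. Complex IV was led by the small subunit COX7C (208 to 254 RPKM) and by COX4I1 (162 to 218 RPKM), an early-assembling subunit, and ended with COX7B (18.8 to 20.9 RPKM) and COX7A2L (6.43 to 8.82 RPKM), a supercomplex assembly factor. Complex V was led by the catalytic beta subunit ATP5B (from 150.0 RPKM in T24T vector down to 145 RPKM in EJ vector) and by ATP5I (from 109 RPKM in both T24T libraries down to 93.3 RPKM in EJ vector), subunit e of the membrane sector. In the plot of levels by complex the 4 libraries of most genes lie close together, and neighbours can change places, as SDHB lay above SDHA in both T24T libraries and below it in both EJ libraries.

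**Figure D1:**
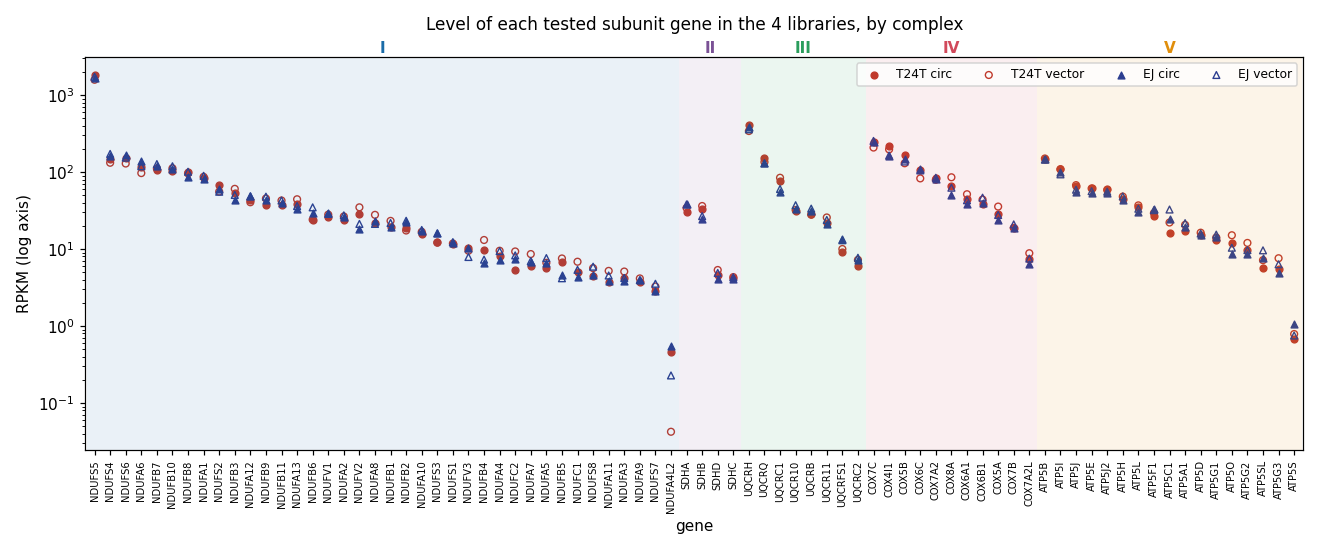
RPKM (log axis) of each of the 78 tested subunit genes in T24T circ, T24T vector, EJ circ and EJ vector, grouped by complex I to V and sorted by mean level. The 4 marks of a gene mostly lie together, NDUFS5 stands at a mean of 1700 RPKM, and NDUFA4L2 is the gene whose 4 values lie farthest apart.

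To ask which subunit genes answered to the circular RNA, the circ libraries were compared with the vector libraries, with both lines in 1 fit. Of the 78 tested members 10 passed, which is 12.8% and near the 12.7% of all tested genes, and 8 of the 10 were lower with the circle. By direction, 8 fell, which is 10.3%, against 5.56% of all 17689 tested genes, and 2 rose, which is 2.56%, against 7.13% of all tested genes. The falls were ATP5C1, ATP5G3, ATP5O and ATP5SL in complex V, NDUFC2, NDUFA11 and NDUFS8 in complex I, and COX8A in complex IV, and the rises were NDUFA6 and NDUFA4L2. The calls are from the edgeR quasi-likelihood test with line as a block, at an adjusted p under 0.05 (Benjamini-Hochberg over all tested genes). Every ± below is a standard error of that fit, with 1 residual degree of freedom, so it rests mostly on spread pooled over genes. For circ over vector there are n = 2 lines per arm. Within a line there is no replicate, and nothing in the labels says more than that the libraries are separate.

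Most of the other members also sat slightly low. The median log2 ratio of the members was -0.09, with -0.10 in T24T and -0.09 in EJ, beside 0.002 for all tested genes. Of the members, 46 (59.0%) were below 0 in both lines, against 32.4% of all tested genes, and 12 (15.4%) were above 0 in both, against 33.5%. The sizes were small. A difference of 25% or more of the lower value was reached in T24T by 10 members that were lower and 3 that were higher (12.8% and 3.85%, against 16.2% and 18.7% of all tested genes), and in EJ by 4 that were lower and 3 that were higher (5.13% and 3.85%, against 16.2% and 17.2%). Among the 77 members with 50 or more counts in each line, 8 fell and 1 rose, against 6.80% and 8.51% of the 13701 genes with such counts. Of these 77, 10 were lower and 2 higher in T24T by 25% or more, against 13.4% and 14.4% of such genes. In EJ 4 were lower and 2 higher, against 12.5% and 12.5%. RNA came from whole cultures, so a change in the mix of cells and a change of RNA per cell cannot be told apart. The model matters here: DESeq2 called 0 members (5 at an unadjusted p under 0.05, and 12 of the 78 without an adjusted p), limma on log2(RPKM + 1) called 0 (23 unadjusted), and edgeR without the line block called 0 (0 unadjusted).

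**Figure D2:**
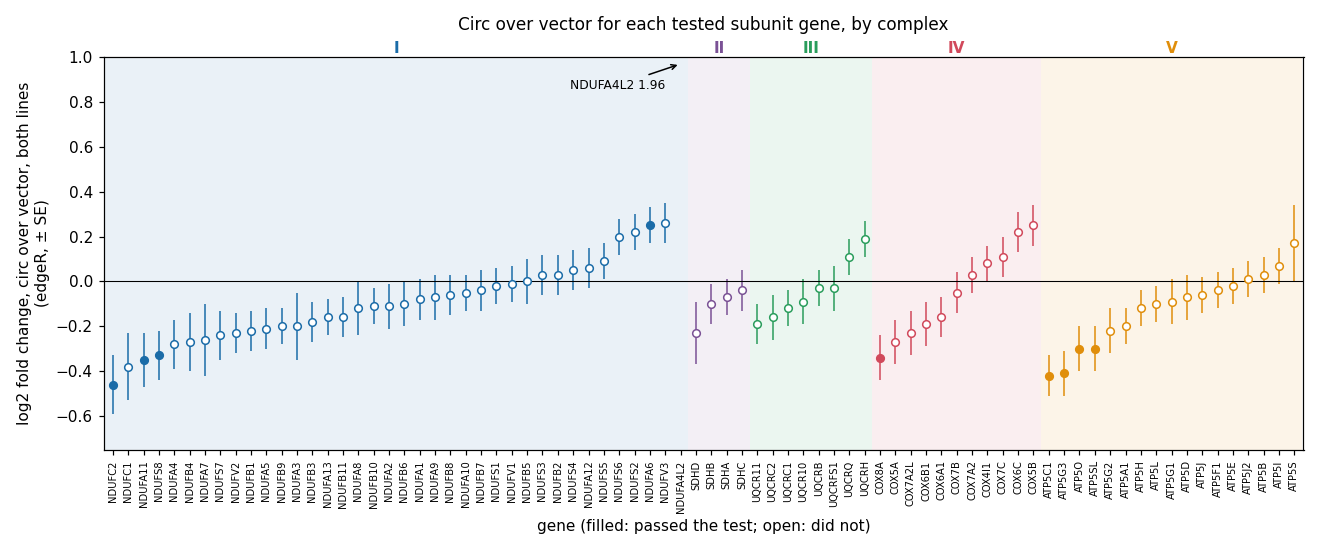
Log2 fold change of circ over vector from the edgeR fit over both lines, with its standard error as the bar, for the 78 tested members by complex. Filled marks passed the test: 8 lie below 0, 1 above 0, and NDUFA4L2 at 1.96 is off the scale.

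In complex V, 4 of 17 tested members fell in the edgeR test (6 at an unadjusted p under 0.05). That is 23.5%, against 5.56% of all tested genes. The 17 include ATP5S and ATP5SL, which are not standard subunits, and ATP5SL is 1 of the 4. The smallest adjusted p among the falls was that of ATP5C1 (chromosome 10, 7788129 to 7807815, hg38), which encodes the gamma subunit, the rotating central stalk. ATP5C1 had 16.3 RPKM in T24T circ and 22.1 in T24T vector, and 24.2 in EJ circ and 32.6 in EJ vector. Circ was lower than vector in each line by nearly the same factor, and the ranges of circ and vector overlap, since EJ circ lies above T24T vector. The log2 ratios were -0.41 in T24T and -0.42 in EJ, and the fitted change was -0.42 ± 0.09 (edgeR adjusted p = 0.00197). The gene shares no exon bases with another gene of the deposited table. DESeq2 gave it an adjusted p of 0.0796, the smallest of the 6 it gave among the 10.

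The c subunits form the rotor ring in the membrane, and in humans several genes encode the same mature protein. ATP5G3 (chromosome 2, 175176258 to 175184607) had 5.43 RPKM in T24T circ and 7.59 in T24T vector, and 4.90 in EJ circ and 6.34 in EJ vector, so both circ libraries lay below both vector libraries. Its fold change was -0.41 ± 0.10 (edgeR adjusted p = 0.00414). ATP5G3 shares 94 exon bases on its own strand with Y_RNA, whose fold change was -0.08, and 393 with AC096649.1 on the opposite strand. The paralogs did not pass: ATP5G1, the most abundant, had 13.0 RPKM in T24T circ and 14.1 in T24T vector, and 14.4 in EJ circ and 15.4 in EJ vector (-0.09 ± 0.10, edgeR adjusted p = 0.627). ATP5G2 supplied 34.7% of the family's RPKM in T24T circ and 35.6% in T24T vector, and 30.6% in EJ circ and 30.8% in EJ vector (-0.22 ± 0.10, edgeR adjusted p = 0.136). The share of ATP5G3 was 19.2% in T24T circ and 22.6% in T24T vector, and 17.6% in EJ circ and 20.2% in EJ vector. The difference between paralogs in their response was not tested.

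ATP5O (chromosome 21, 33903453 to 33915980) encodes OSCP, which joins the peripheral stalk to the catalytic head. ATP5O had 11.8 RPKM in T24T circ and 15.1 in T24T vector, and 8.58 in EJ circ and 10.4 in EJ vector. It was lower with the circle in each line (-0.33 in T24T and -0.27 in EJ, fitted -0.30 ± 0.10, edgeR adjusted p = 0.0394). The gene shares 655 exon bases on its own strand with AP000304.12, whose fold change was -0.43, so their reads cannot be told apart with certainty.

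ATP5SL (chromosome 19, 41431318 to 41440717), whose protein is now known as a complex I assembly factor, DMAC2, had 5.71 RPKM in T24T circ and 7.17 in T24T vector, and 7.76 in EJ circ and 9.62 in EJ vector. Both lines gave -0.30 (fitted -0.30 ± 0.10, edgeR adjusted p = 0.0489), and without the filter on low counts the call was lost (edgeR adjusted p = 0.0504). Of the catalytic head, neither the beta nor the alpha subunit gene passed. The beta subunit gene ATP5B stood at 0.03 ± 0.08 (edgeR adjusted p = 0.884) and the alpha subunit gene ATP5A1 at -0.20 ± 0.08 (edgeR adjusted p = 0.114). ATP5A1 had 17.4 RPKM in T24T circ and 20.6 in T24T vector, and 19.1 in EJ circ and 21.7 in EJ vector.

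In complex I, 3 of 38 members fell (7.89%, against 5.56% of all tested genes) and 2 rose (5.26%, against 7.13%). NDUFC2 (chromosome 11, 78068304 to 78080219), a small subunit of the membrane arm, had 5.30 RPKM in T24T circ and 9.30 in T24T vector, and 7.46 in EJ circ and 8.27 in EJ vector. Both circ libraries lay below both vector libraries, but the gap was wide in T24T alone. The log2 ratio was -0.78 in T24T (95% counting interval -1.02 to -0.56) and -0.14 in EJ (-0.37 to 0.09), so the fitted change of -0.46 ± 0.13 (edgeR adjusted p = 0.0166) rests on T24T. These intervals cover counting error only. NDUFC2 shares 431 exon bases with the readthrough gene NDUFC2-KCTD14, which had 276 counts in T24T circ and 431 in T24T vector, and 317 in EJ circ and 360 in EJ vector. NDUFC2 itself had 254 and 416 counts in T24T circ and T24T vector, and 291 and 343 in EJ circ and EJ vector, a nearly equal pattern.

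NDUFA11 (chromosome 19, 5891276 to 5904006), also of the membrane arm, had 3.71 RPKM in T24T circ and 5.20 in T24T vector, and 3.87 in EJ circ and 4.53 in EJ vector. Circ and vector libraries did not overlap. The log2 ratio was -0.46 in T24T and -0.22 in EJ (counting interval -0.46 to 0.01). The fitted change was -0.35 ± 0.12 (edgeR adjusted p = 0.0492). NDUFA11 shares 467 exon bases on its own strand with AC024592.12. AC024592.12 had 312 counts in T24T circ and 402 in T24T vector, and 258 in EJ circ and 317 in EJ vector. NDUFA11 itself had 324 and 424 counts in T24T circ and T24T vector, and 275 and 343 in EJ circ and EJ vector. AC024592.12 changed by -0.33 (edgeR adjusted p = 0.0718), and the reads of both genes cannot be told apart with certainty. NDUFS8 (chromosome 11, 68030617 to 68036644), a core subunit that carries iron-sulfur clusters toward the quinone site, had 4.43 RPKM in T24T circ and 5.65 in T24T vector, and 4.65 in EJ circ and 5.90 in EJ vector. Here both lines gave -0.33, the circ and vector libraries did not overlap, and the fitted change was -0.33 ± 0.11 (edgeR adjusted p = 0.0485).

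NDUFA6 (chromosome 22, 42085525 to 42090955), an accessory subunit of the matrix arm, was the abundant gene that rose. It had 116 RPKM in T24T circ and 96.9 in T24T vector, and 138 in EJ circ and 119 in EJ vector, which is higher with the circle in each line. NDUFA6 shares 25 exon bases with NDUFA6-AS1 on the opposite strand. The fitted change of NDUFA6 was 0.25 ± 0.08 (edgeR adjusted p = 0.0410), with 0.28 in T24T and 0.23 in EJ. The call was lost with library sizes in place of TMM scaling (edgeR adjusted p = 0.0539), with the mitochondrially encoded genes left out (0.0555) and with no filter on low counts (0.0802).

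NDUFA4L2 (chromosome 12, 57234903 to 57240715), a paralog of NDUFA4 known for its induction by hypoxia, rose on few reads. It had 23 counts in T24T circ and 2 in T24T vector, and 23 in EJ circ and 10 in EJ vector, with both circ libraries above both vector libraries. The log2 ratio was 2.56 in T24T (counting interval 1.43 to 6.58) and 1.15 in EJ (0.17 to 2.53), and the fitted change was 1.96 ± 0.51 (edgeR adjusted p = 0.00848). It shares 33 exon bases with SHMT2 on the opposite strand, and whether strand was used in counting is not given in the sources used here. Its paralog NDUFA4 had 8.13 RPKM in T24T circ and 9.50 in T24T vector, and 7.31 in EJ circ and 9.39 in EJ vector (-0.28 ± 0.11, edgeR adjusted p = 0.0861) and did not pass.

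In complex IV, 1 of 11 members fell in the edgeR test (9.09%, against 5.56% of all tested genes). COX8A (chromosome 11, 63974607 to 63976543), the common isoform of the small subunit VIII, had 65.0 RPKM in T24T circ and 85.5 in T24T vector, and 50.4 in EJ circ and 62.6 in EJ vector. It was lower with the circle in each line (-0.37 in T24T and -0.30 in EJ, fitted -0.34 ± 0.10, edgeR adjusted p = 0.0263). COX8A shares 175 exon bases, 34.5% of its length, on its own strand with AP000721.4. AP000721.4 changed by -0.11 (edgeR adjusted p = 0.441), and the reads of the 2 genes cannot be told apart with certainty. The highest ratio of the complex was that of COX5B, the zinc-binding subunit, with 167 RPKM in T24T circ and 130 in T24T vector, and 147 in EJ circ and 137 in EJ vector. Both circ libraries of COX5B lay above both vector libraries, and at 0.25 ± 0.09 (edgeR adjusted p = 0.0560) the gene did not pass. The complex had 3 falls and 2 rises at an unadjusted p under 0.05. The share of all tested genes at that threshold is not given here.

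No gene of complex II or III passed the edgeR test, 0 of 4 and 0 of 8, against 12.7% of all tested genes. At an unadjusted p under 0.05 there were 0 in complex II and 1 in complex III, and DESeq2 (with no adjusted p for 1 gene of complex II) and limma-voom called 0 in each. SDHD had the lowest fold change of complex II (-0.23 ± 0.14, edgeR adjusted p = 0.331) and SDHC the highest (-0.04 ± 0.09, 0.840), while SDHA (-0.07 ± 0.08, 0.644) and SDHB (-0.10 ± 0.09, 0.527) lay between. Complex III ran from UQCR11, a small subunit, at -0.19 ± 0.09 (edgeR adjusted p = 0.199) to UQCRH at 0.19 ± 0.08 (0.135). The plot of log2 fold changes by complex shows both directions in each complex except complex II, where all 4 values lie below 0.

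Response and level went together among the members, more so in T24T. Over 77 members, leaving out NDUFA4L2 for its low counts, Spearman's rho between mean RPKM and the log2 ratio of circ over vector was 0.65 in T24T and 0.33 in EJ. Over the 11071 genes with a mean of 100 or more counts it was 0.07 in each line. These are descriptions across genes, which share the 4 libraries and their depth and are not independent. Of the 26 members with the lowest levels (0.32 to 14.1 RPKM), 6 fell and 1 rose. Over all tested genes, at any level, 5.56% fell and 7.13% rose, and shares for genes of like level are not given here. The median log2 ratio of these 26 members was -0.22 in T24T and -0.13 in EJ. The middle 26 (14.2 to 44.4 RPKM) had medians of -0.15 and -0.14, with 1 fall. The 26 most abundant (45.1 to 1700 RPKM) had a median of 0.09 in T24T, where 18 lay above 0, and of -0.04 in EJ, where 9 did. Among them 1 fell and 1 rose. Gene length ran against level (rho = -0.59 over the 77 members) and was weakly related to the ratio (-0.14 in T24T and -0.01 in EJ).

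**Figure D3:**
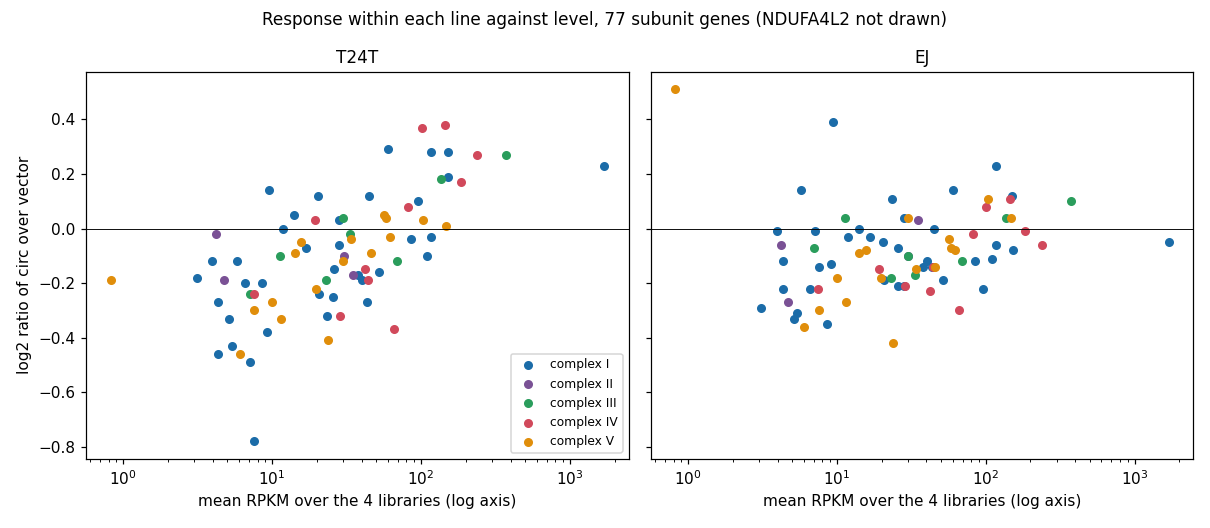
Log2 ratio of circ over vector in T24T (left) and EJ (right) against the mean RPKM over the 4 libraries (log axis), 1 point per gene for 77 members, coloured by complex. In T24T the points climb from mostly below 0 at low level to mostly above 0 at high level (rho = 0.65), and in EJ the climb is weaker (rho = 0.33).

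The responses of the members in the 2 lines resembled each other in part, with rho = 0.62 over the 77 members with a mean of 100 or more counts and 0.57 over the 11071 genes with such counts. Signs were opposite in 20 members, of which 13 were above 0 in T24T and below 0 in EJ and 7 the reverse (34.1% of all tested genes had opposite signs). NDUFA4L2, on few reads, had the widest gap, as given above. Among members with 50 or more counts in each library, the 5 that were most above EJ in T24T were COX7C, NDUFB8, COX6C, NDUFS4 and NDUFS5, all with a mean of 96.2 RPKM or more. COX7C had 8922 counts in T24T circ and 7003 in T24T vector, and 7122 in EJ circ and 7919 in EJ vector, which gave log2 ratios of 0.27 in T24T and -0.06 in EJ. COX6C, another small complex IV subunit, had 105 RPKM in T24T circ and 82.7 in T24T vector, and 110 in EJ circ and 105 in EJ vector (0.37 in T24T and 0.08 in EJ). The gaps the other way included the following genes. NDUFA7, an accessory subunit of complex I, had -0.49 in T24T and -0.01 in EJ, and NDUFA8, on the intermembrane-space side, had -0.32 and 0.11. ATP5S, a coupling factor, had 138 counts in T24T circ and 150 in T24T vector, and 178 in EJ circ and 133 in EJ vector (-0.19 in T24T and 0.51 in EJ). With 1 library per group these differences between the lines could not be tested.

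**Figure D4:**
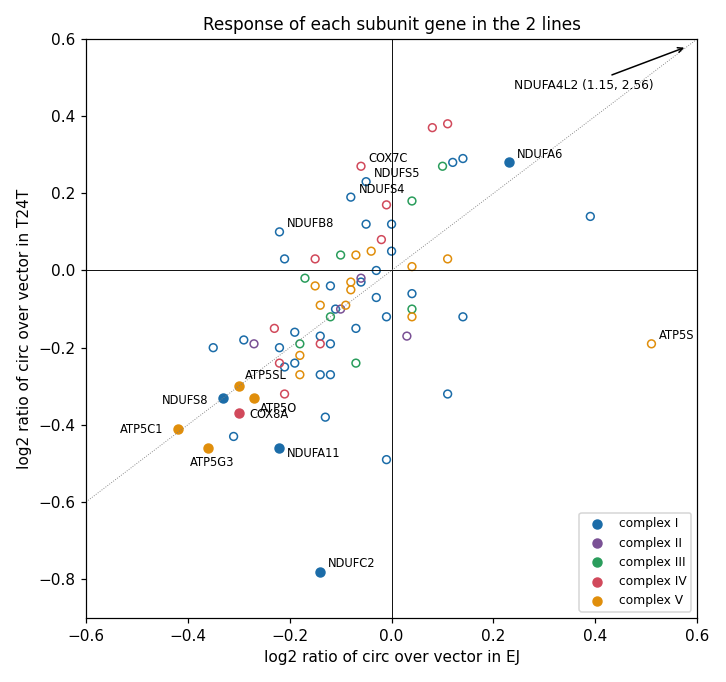
Log2 ratio of circ over vector in T24T (vertical) against EJ (horizontal) for the tested members, coloured by complex, with filled points for genes that passed the edgeR test and a dotted line where both lines are equal. The falls other than NDUFC2 and NDUFA11 lie close to the line of equality, COX7C, NDUFS5, NDUFS4 and NDUFB8 lie above 0 in T24T and below 0 in EJ, and NDUFA4L2 lies beyond the axes.

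The lines themselves differed more than the transfection did. In the same fit, with transfection as the block, 19 of 78 members were higher in T24T than in EJ (24.4%, against 21.9% of all tested genes) and 7 were lower (8.97%, against 19.5%). Each arm here is 1 line, whose 2 libraries are its circ and its vector library. There is no replicate of a line with the same transfection, so the standard errors do not cover spread between such replicates. Complex IV had 5 higher in this edgeR test, complex V 7 higher and 2 lower, complex I 5 and 4, complex III 1 and 1, and complex II 1 higher, the iron-sulfur subunit SDHB at 0.49 ± 0.09. The widest gap was NDUFB5, a membrane-arm subunit, with 6.84 and 7.54 RPKM in T24T circ and vector and 4.59 and 4.17 in EJ circ and vector (0.78 ± 0.11, edgeR adjusted p = 3.21e-07). NDUFB4, of the same arm, had 9.85 and 13.1 RPKM in T24T circ and vector and 6.62 and 7.28 in EJ circ and vector (0.78 ± 0.13, edgeR adjusted p = 7.34e-06). The T24T and EJ libraries of both genes did not overlap.

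NDUFV2, a core iron-sulfur subunit of the NADH-oxidising module, had 28.8 and 34.8 RPKM in T24T circ and vector and 18.2 and 21.2 in EJ circ and vector (0.75 ± 0.09, edgeR adjusted p = 2.22e-08). It shares 771 exon bases, 28.4% of its length, on its own strand with RP11-21J18.1. Both genes had nearly equal counts, and their reads cannot be told apart with certainty. UQCRC1, a core protein of complex III, had 76.1 and 84.3 RPKM in T24T circ and vector and 55.0 and 60.3 in EJ circ and vector (0.54 ± 0.08, edgeR adjusted p = 2.70e-06), and ATP5O was higher in T24T by 0.56 ± 0.10. Lower in T24T were ATP5C1 (-0.50 ± 0.09, edgeR adjusted p = 3.53e-05), UQCRFS1 (-0.39 ± 0.10, 0.00178), ATP5SL (-0.37 ± 0.10, 0.00430), NDUFB6 (-0.36 ± 0.10, 0.00447) and NDUFS3 (-0.32 ± 0.09, 0.00533), a core subunit of the quinone module. Of the 8 genes of complex III, UQCRC1 alone was higher in T24T (12.5%, against 21.9% of all tested genes). UQCRFS1 alone was lower (12.5%, against 19.5%), and 6 did not pass. COX8A and ATP5G3, both lower with the circle, were higher in T24T, at 0.47 ± 0.10 and 0.27 ± 0.10.

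**Figure D5:**
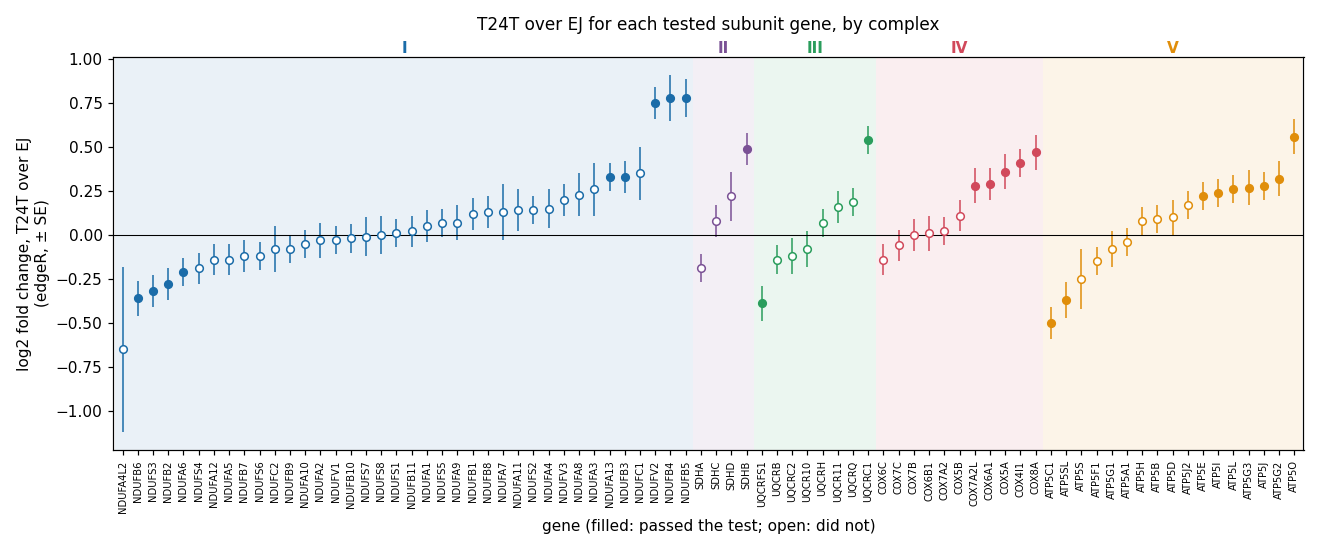
Log2 fold change of T24T over EJ from the same edgeR fit, with its standard error as the bar, for the 78 tested members by complex, filled where the gene passed the test. All 5 filled marks of complex IV lie above 0, and complex I spans from NDUFB6 at -0.36 to NDUFB4 and NDUFB5 at 0.78 among its filled marks.

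The partner genes of the chain in the mitochondrial genome moved much further than the nuclear ones. All 13 mitochondrially encoded mRNAs fell, in edgeR and in DESeq2 (edgeR median fold change -0.60, with -0.77 in T24T and -0.46 in EJ). Over all tested genes 5.56% fell in edgeR. For each count of a nuclear member there were 2.67 mitochondrial mRNA counts in T24T circ and 4.69 in T24T vector, and 3.51 in EJ circ and 4.64 in EJ vector. In complex IV, MT-CO2 had 2100 RPKM in T24T circ and 3770 in T24T vector, and 2300 in EJ circ and 3440 in EJ vector (-0.70 ± 0.08, edgeR adjusted p = 2.72e-07), the largest fall of the 13. MT-CO1 stood at -0.60 ± 0.08 and MT-CO3 at -0.49 ± 0.09. The 11 nuclear members of the complex ran from -0.34 for COX8A to 0.25 for COX5B, with COX4I1 at 0.08 ± 0.08.

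The genes that build and serve the complexes gave a mixed picture. Of 53 assembly factors tested, 6 rose (11.3%, against 7.13% of all tested genes) and 3 fell (5.66%, against 5.56%), with a median fold change of 0.07. DESeq2 called 1 rise and 0 falls among them (4 and 3 at an unadjusted p under 0.05), with no adjusted p for 28 of the 53. For complex I, 3 of 18 rose in edgeR (16.7%, against 7.13% of all tested genes) and 1 fell (5.56%, against 5.56%). TIMMDC1, a membrane-arm assembly factor, had 39.4 RPKM in T24T circ and 27.0 in T24T vector, and 33.0 in EJ circ and 24.9 in EJ vector (0.49 ± 0.09, edgeR adjusted p = 0.000198). NDUFAF8, listed as C17orf89 (0.36 ± 0.08), and NDUFAF2 (0.27 ± 0.08) rose as well, while NDUFAF3 fell to 5.26 RPKM in T24T circ, against 9.04 in T24T vector, and to 4.05 in EJ circ, against 5.78 in EJ vector (-0.65 ± 0.13, edgeR adjusted p = 0.00132).

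For complex III, 2 of 6 assembly factors rose in edgeR (33.3%, against 7.13% of all tested genes). They were UQCC3 (0.33 ± 0.11) and TTC19 (0.28 ± 0.08), which helps to turn over Rieske protein fragments. DESeq2 called 0 of the 6 (1 at an unadjusted p under 0.05). For complex IV, 1 of 22 rose in edgeR (4.55%, against 7.13%), COA7 (0.31 ± 0.09), and 2 fell (9.09%, against 5.56% of all tested genes). The falls were COX16 (-0.48 ± 0.10), which acts in the insertion of copper into MT-CO2, and PET100 (-0.45 ± 0.09). Of the 4 factors for complex II and the 3 for complex V, 0 passed in edgeR or limma-voom, against 12.7% of all tested genes in edgeR. DESeq2 gave no adjusted p to 3 and 2 of them, and 0 had an unadjusted p under 0.05 in any of the 3 tools. Among 6 tested subunits that the naming rule left out, 1 rose (16.7%, against 7.13%), ATPIF1, the inhibitor of ATP hydrolysis by ATP synthase. It had 228 RPKM in T24T circ and 165 in T24T vector, and 206 in EJ circ and 170 in EJ vector (0.39 ± 0.08, edgeR adjusted p = 0.00169). Circ and vector libraries of ATPIF1 did not overlap.

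Among 15 genes of cytochrome c, ubiquinone synthesis and the electron transfer flavoprotein, 2 rose in edgeR (13.3%, against 7.13% of all tested genes). They were COQ5 (0.36 ± 0.09), a methyltransferase, and COQ9 (0.28 ± 0.09), a lipid-binding protein. DESeq2 called 0 (10 of the 15 without an adjusted p, 1 rise at an unadjusted p under 0.05). Of 7 carriers and outer-membrane channels, 2 fell, in edgeR and in DESeq2 (28.6%, against 5.56% of all tested genes in edgeR). These were the adenine nucleotide translocators SLC25A5 and SLC25A6, which exchange ADP for ATP across the inner membrane. SLC25A5 had 52.6 RPKM in T24T circ and 81.4 in T24T vector, and 43.2 in EJ circ and 64.8 in EJ vector (-0.59 ± 0.09, edgeR adjusted p = 1.11e-05). SLC25A6 changed by -0.36 ± 0.08 (edgeR adjusted p = 0.00395), and their paralog SLC25A4 stood at 0.05 ± 0.11 (0.808). Of 13 citrate cycle enzymes, 0 passed in edgeR, limma-voom or DESeq2, and 3 were lower at an unadjusted p under 0.05 in edgeR. Over all tested genes 12.7% passed in edgeR.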

How the data were processed

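The authors deposited read counts and RPKM values per gene for 4 libraries, and every deposited RPKM equals the count divided by gene length and library total (100% within a relative tolerance of 1e-06). Trimmomatic, HISAT2 and hg38 are named in the submitters' processing notes. Versions, the counting tool, the annotation and the use of strand are not given in the sources used here. 0 sample columns were left out.

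The filter asked for 10 counts in some library and 20 in total, which left 17689 genes. They were tested with edgeR 4.0.16 in R 4.3.3: TMM scaling, quasi-likelihood test, line and transfection as terms, Benjamini-Hochberg adjustment at 0.05. Log2 ratios within a line used a prior count of 2 and exact 95% binomial intervals. DESeq2 1.42.0 and limma 3.58.1 were alternatives. Counts at an unadjusted p are given without the share of all tested genes at that threshold. Members and lists were chosen with earlier results of these data known. The text names members that passed, the extremes of level, change and line difference, paralog groups, and list genes that passed. SLC25A4 and ATP5A1 were chosen after their values were seen. Overlaps follow the exon coordinates in the deposited count table.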

Additional observations from a re-analysis of the deposited data

Results flagged for a closer look

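NDUFS5, NDUFS4, COX7C and NDUFB8, abundant genes of complexes I and IV, stood above 0 in T24T and below 0 in EJ. Their counting intervals were off 0 in both lines. Some other abundant genes of these complexes had the same sign in both lines, as COX5B and COX6C above 0 and NDUFA1 and NDUFB10 below 0. Signs were opposite in 20 of the 78 tested members, against 34.1% of all tested genes. With 1 library per group these differences between the lines were not tested, and the intervals cover counting error only. NDUFS5 had 18020 counts in T24T circ and 14628 in T24T vector, and 13413 in EJ circ and 14803 in EJ vector. Its log2 ratio was 0.23 in T24T (0.19 to 0.26) and -0.05 in EJ (-0.08 to -0.01), a difference of 0.27. For NDUFS4 the difference was also 0.27, from 0.19 in T24T and -0.08 in EJ. COX7C gave 0.27 in T24T and -0.06 in EJ, a difference of 0.33. NDUFB8, with 3645 counts in T24T circ and 3232 in T24T vector, and 2544 in EJ circ and 3171 in EJ vector, gave 0.10 in T24T and -0.22 in EJ, a difference of 0.32. NDUFB8 shares 675 exon bases with RP11-411B6.6 on the same strand, and both genes have nearly equal counts.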

How the results depend on the processing

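With RLE scaling 12 members passed circ over vector and with limma-voom 11, and the 10 of the main comparison were kept in both. DESeq2, limma on log2(RPKM + 1), limma on log2(RPKM + 0.1) and edgeR without the block called 0 members, 0 rises and 0 falls (5, 23, 24 and 0 at an unadjusted p under 0.05). DESeq2 gave no adjusted p for NDUFA11, NDUFA4L2, NDUFC2 and NDUFS8, and between 0.0796 and 0.383 for the other 6. Rises numbered 1 under a stricter filter, under no filter, with library size alone, with mitochondrial genes left out, or without the names that are not standard subunits. In T24T over EJ, DESeq2 called 8 members (7 higher, 1 lower), edgeR without the block 5 (5 higher, 0 lower), limma on either RPKM scale 11 higher, and library size alone 11 lower. At 1.5-fold, 1 member was higher and 1 lower in T24T, and 1 higher and 0 lower in EJ, and on the log2(RPKM + 1) scale 2 were lower in EJ by the smaller fold of the report. The median ratio of members was -0.102 with RLE, -0.107 with library size alone, -0.103 on log2(RPKM + 1), -0.107 on log2(RPKM + 0.1), -0.106 without mitochondrial genes and -0.102 in T24T alone. No direction was reversed under any of these settings. The line block of the main comparison pairs the circ and vector library of each line, and the labels give no replicate numbers for any other pairing. Leaving out a library ends the test, so each line is given alone. The causes of these shifts were not tested. Of the 80 members, 42 share exon bases with another gene, 7 of the 10 that passed among them, and those counts may be shared.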
